A study of Mus musculus with 10 samples.

Results

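The liver senses bile acids and adjusts their synthesis through a small set of regulators, and 7 of their genes are described here: Nr1h4, Nr0b2, Nr5a2, Fgfr4, Klb, Hnf4a and Foxa2. They were chosen by name. Each was read by the probe set, among those annotated to that symbol alone, with the highest mean over all arrays, so that the members were 7 of 18193 named genes. All 7 lay above the filter on low values, which kept 11061 genes. Liver RNA came from female mice of the inbred strains DBA/2J (D2) and C57BL/6J (B6), and the labels name no transgene or targeted allele. Both strains received a diet high in fat and cholesterol, and livers were taken at 0, 1, 4, 12 and 21 weeks. Each array, an Affymetrix Mouse Genome 430 2.0, carried a pool of RNA from 5 mice of 1 strain and 1 week, which gave 4 fed arrays and 1 week 0 array for D2, and the same for B6. The age of the mice is not given in the labels, and age increased with the weeks on the diet.

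Bile acids are made from cholesterol in hepatocytes. The nuclear receptor FXR, encoded by Nr1h4, binds bile acids and, paired with RXR, induces target genes that include Nr0b2. The product of Nr0b2, SHP, has no DNA-binding domain and represses other factors, among them LRH-1 (Nr5a2) and HNF4A, which activate the genes of bile acid synthesis. A second arm starts in the ileum, where FXR induces the hormone FGF15. FGF15 reaches the liver and acts there on the receptor FGFR4 together with the co-receptor beta-Klotho (Klb) to repress Cyp7a1, the gene of the first and rate-limiting step of bile acid synthesis. FOXA2 is a pioneer factor of liver chromatin that also takes part in bile acid homeostasis.

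Values below are log2 normalised signals, and differences are on the log2(signal + pseudocount) scale, which understates those of low signals. Before normalisation the arrays differed in brightness, with 2% trimmed means of 56.2 to 89.1, and the dimmest were those of week 0 in either strain. Arrays within a strain correlated at 0.930 to 0.946 in D2 and 0.921 to 0.945 in B6. The 11 hepatocyte markers with a probe set averaged 11.78 to 12.09 in D2 and 11.97 to 12.11 in B6, and none passed a strain or diet test. Normalisation gives equal ranks equal values, so markers near the top of the scale, like Apoa1 at 13.16 on all 10 arrays, could hardly differ. Their mean thus says little about hepatocyte content. In whole liver, fewer cells of a type and less RNA per cell cannot be told apart. The mean of 14 macrophage and Kupffer cell markers was 7.49 to 8.08 in D2, while in B6 it was 7.65, 8.83, 10.09, 7.53 and 9.05 at weeks 0, 1, 4, 12 and 21. The B6 arrays of weeks 1, 4 and 21 therefore carried the highest macrophage marker levels, and B6 weeks 1 and 4 recur below among the arrays that stand apart. Of 6 cholangiocyte markers with a probe set, 1 lay above the filter. Between the strains, 1 of 14 macrophage and Kupffer cell markers tested was lower in D2 (median −0.74). So were 3 of 9 stellate cell markers (median −0.60) and 2 of 7 endothelial markers (median −0.08). Of 3 lymphocyte markers 0 passed (median −0.25), and 2 of 3 markers of intestine or pancreas were higher (median 0.49). Of all 11061 genes, 451 were lower and 432 higher in the same test. The part of these cells in the strain differences below was not tested.

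Of the 7 regulators, 1 passed the comparison of strains over all weeks. Fgfr4 was higher in D2, by 1.75-fold, in limma with week as a block and Benjamini-Hochberg adjustment over all 11061 genes (threshold 0.05). Among all genes, 7.98% passed this test in either direction and 3.91% were higher in D2, against which 1 of 7 members is to be read. Klb, Nr0b2, Nr5a2, Nr1h4 and Foxa2 had positive estimates that did not pass, and that of Hnf4a was close to 0. The median strain difference of the 7 members was 0.27, beside 0.01 for all genes tested. None of the members passed limma in the diet comparison, within either strain, in the interaction or in the trend over fed weeks. At an unadjusted p under 0.05 these comparisons held 1 member each (Hnf4a for diet, Nr0b2 within B6 and in the interaction, Klb in the trend), and 0 within D2. Of all genes, 17.5% were below that p for diet, 12.6% within B6, 11.5% within D2, 6.09% in the interaction and 4.73% in the trend. With the signals as deposited, where the median of all genes was 0.52 higher in fed arrays than at week 0 and 4990 genes passed the diet comparison, Nr0b2 (1.12), Nr5a2 (0.89) and Fgfr4 (0.49) passed it too (limma adjusted p = 0.0214, 0.00611 and 0.0331). The weeks served as replicates in these tests, so their spread also holds the effect of time, and p-values measure only the spread between these pools.

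**Figure D1:**
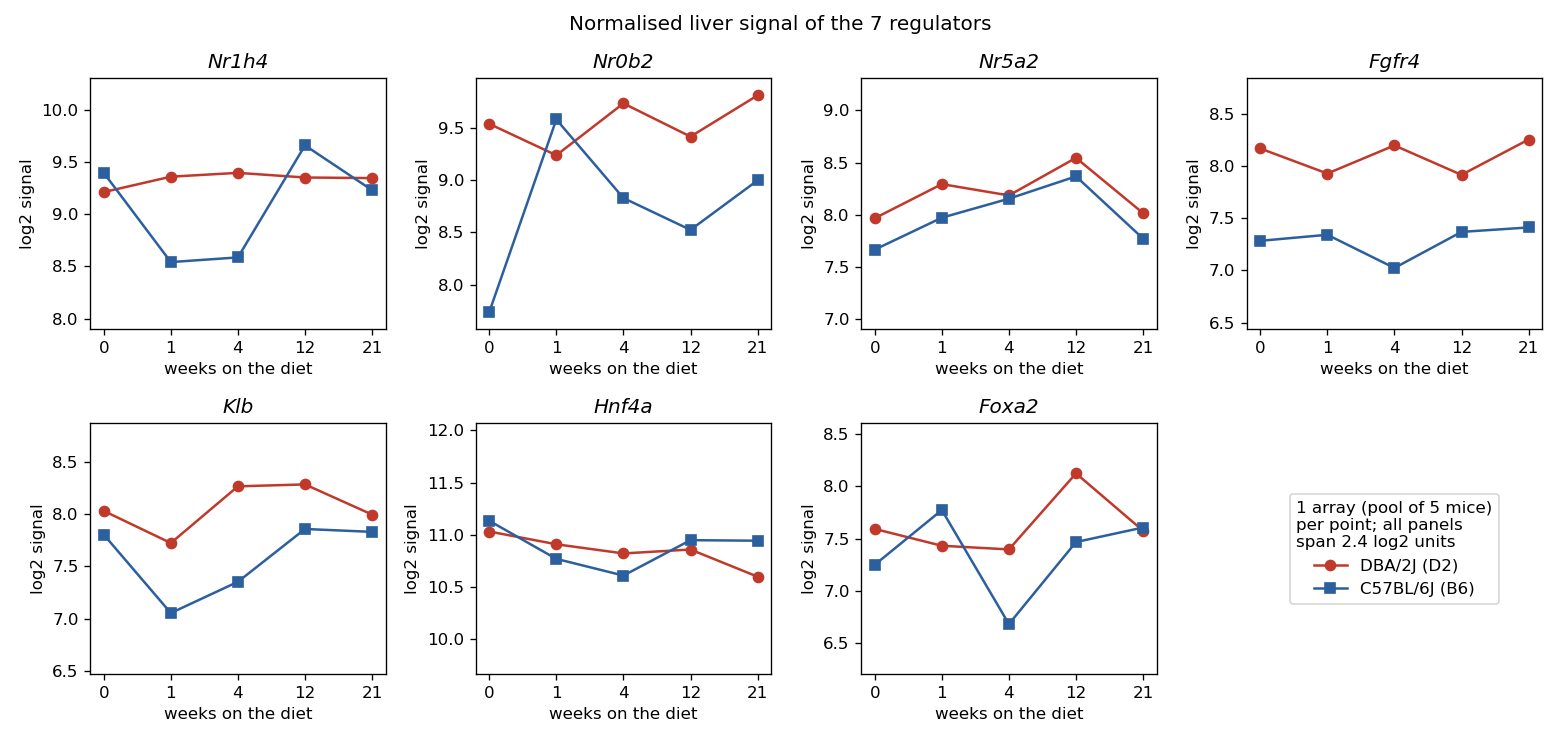
Log2 normalised signal of each regulator (vertical axis) against weeks on the diet (horizontal axis, evenly spaced), with 1 point per array, D2 as red circles and B6 as blue squares, and every panel spanning the same number of log2 units. Fgfr4 is the panel in which the strains do not overlap, and Nr1h4 stays within 0.18 in D2 against 1.12 in B6.

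Nr1h4, read by probe set 1419105_at, lies on chromosome 10 at 89454234 to 89533645 of mouse assembly GRCm38.p6. In D2 its signal was 9.21, 9.36, 9.39, 9.35 and 9.34 at weeks 0, 1, 4, 12 and 21, and in B6 it was 9.39, 8.54, 8.58, 9.66 and 9.23. The lowest arrays were B6 weeks 1 and 4, the highest was B6 week 12, and the strains overlapped. The range was 0.18 in D2 and 1.12 in B6. At week 1 D2 exceeded B6 by 0.82 and at week 4 by 0.81, while at weeks 0 and 12 the difference was −0.18 and −0.31. Macrophage markers averaged 8.83 and 10.09 on the 2 arrays with low Nr1h4, and 9.05 on B6 week 21, whose Nr1h4 lay within the D2 range. The part of these cells in the Nr1h4 values was not tested. The average strain difference was 0.25 ± 0.18 (SE, 5 arrays per strain, limma adjusted p = 0.447), and D2 was higher at 3 of 5 weeks. Its diet difference, fed minus week 0, was −0.12 ± 0.25 (SE). Rxra, the gene of the partner of FXR, averaged 9.55 ± 0.16 in fed D2 and 9.38 ± 0.25 in fed B6 (SD, n = 4 arrays each), with a strain difference of 0.11 ± 0.12 (SE, limma adjusted p = 0.601).

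The RefSeq window from 250 bases before to 50 bases after the start listed for Nr1h4, which lies inside the gene and not at its outer 5′ end, chr10:89506609-89506908 on the minus strand of GRCm38.p6, is shown because it holds the half-site AGGTCA that many nuclear receptors bind. The motif is on the opposite strand at bases 37 to 42 of the window, where it reads as the capitals:
Nr1h4: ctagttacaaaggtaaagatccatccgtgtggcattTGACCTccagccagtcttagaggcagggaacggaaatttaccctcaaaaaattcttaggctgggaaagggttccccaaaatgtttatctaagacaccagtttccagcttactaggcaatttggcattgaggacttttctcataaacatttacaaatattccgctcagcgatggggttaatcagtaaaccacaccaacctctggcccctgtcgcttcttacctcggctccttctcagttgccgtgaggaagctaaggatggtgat
AGGTCA, searched on both strands, occurred in 2 of 11 windows of the 7 genes and in 16.3% of all 32851 windows of this length. The reference sequence is that of C57BL/6J, and D2 sequence was not used here.

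Nr0b2 (probe set 1449854_at, chromosome 4 at 133553376 to 133556686) showed the widest range over the arrays among the 7 genes, at 2.08. Its signal in D2 was 9.54, 9.24, 9.74, 9.42 and 9.81 at weeks 0, 1, 4, 12 and 21. In B6 it was 7.74, 9.58, 8.83, 8.52 and 9.0 at these weeks. The D2 arrays lay within 0.57 of each other, and B6 week 0 was the lowest array and B6 week 1 the only B6 array inside the D2 range. D2 minus B6 was thus 1.80, −0.34, 0.91, 0.89 and 0.81 at weeks 0, 1, 4, 12 and 21. Over all weeks the difference of 0.81 ± 0.25 (SE, 5 arrays per strain, higher in D2 at 4 of 5 weeks) did not pass (limma adjusted p = 0.0901). Without either week 1 array it was 1.10 and passed (limma adjusted p = 0.0161 and 0.0164), and on the diet alone it was 0.57 ± 0.22 with all 4 pairs (adjusted p = 0.177) and 0.87 without that of week 1 (adjusted p = 0.0134 and 0.0132). The call for Nr0b2 therefore turned on the week 1 arrays.

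Within B6, all 4 fed arrays were above week 0 for Nr0b2, by 1.84, 1.09, 0.79 and 1.26 at weeks 1, 4, 12 and 21. The same was true of 26.7% of all genes in B6. The fed minus week 0 difference in B6 was 1.25 ± 0.34 (SE, 4 fed arrays against 1, limma adjusted p = 0.231), when 0.118% of all genes passed. In D2 the fed arrays differed from week 0 by −0.30, 0.20, −0.12 and 0.27, on both sides of it, and the mean difference was 0.01 ± 0.34 (SE), again with 0.118% of all genes called. The interaction, the D2 difference minus the B6 difference, was −1.23 ± 0.49 (SE, limma adjusted p = 0.765, with 0.00904% of all genes called), so a difference between the strains in this response was not established over all genes. The B6 difference rests on 1 week 0 array, which is assumed to vary like the fed arrays. With the arrays at the authors' own scale it was 1.81 and passed (limma adjusted p = 0.0266), where the median of all genes in B6 was itself shifted by 0.58.

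**Figure D2:**
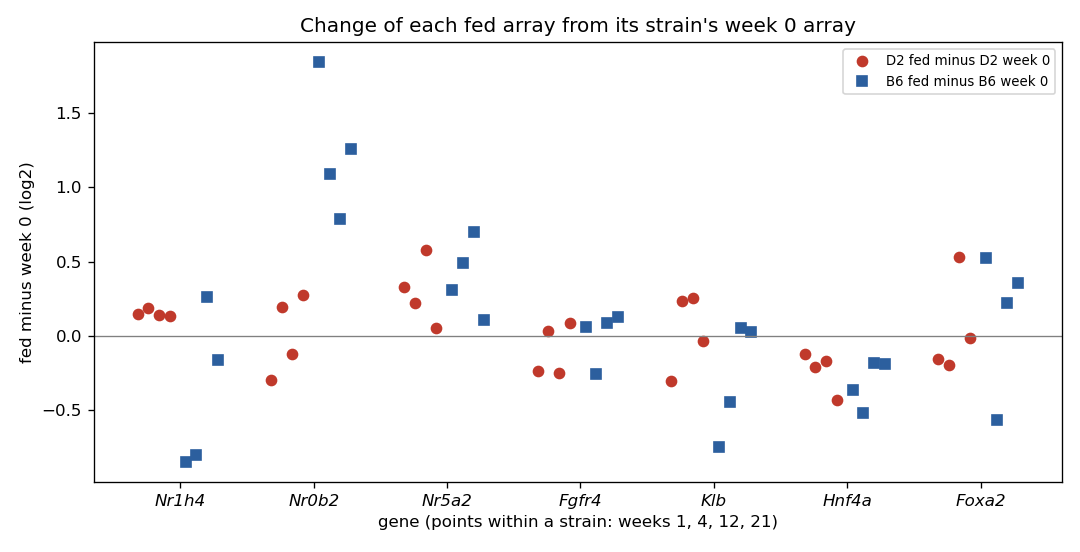
Difference of each fed array from the week 0 array of its own strain (vertical axis, log2) for each regulator (horizontal axis), D2 as red circles left of B6 as blue squares, with weeks 1, 4, 12 and 21 from left to right within a strain. For Nr0b2 the B6 points lie between 0.79 and 1.84 while the D2 points lie on both sides of 0, and for Hnf4a every point is below 0.

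The Nr0b2 window, chr4:133553126-133553425 on the plus strand of GRCm38.p6, is shown because LRH-1 is known to bind the promoter of this gene. None of the 11 windows held CAAGGTCA, a longer LRH-1 site found in 1.56% of all windows. The shorter TCAAGG, added after the sequences had been read, stood at bases 183 to 188 and 216 to 221, in capitals:
Nr0b2: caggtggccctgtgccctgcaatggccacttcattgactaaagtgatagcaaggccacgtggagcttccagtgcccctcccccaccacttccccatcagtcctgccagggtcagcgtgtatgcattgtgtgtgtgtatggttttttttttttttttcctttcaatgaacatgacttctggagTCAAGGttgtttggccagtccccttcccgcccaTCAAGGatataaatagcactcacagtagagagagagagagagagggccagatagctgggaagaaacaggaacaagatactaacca
TCAAGG, searched on both strands, was present in 3 of 11 windows of the members and in 14.4% of all windows, and 1.32% of all windows held 2 or more copies, as that of Nr0b2 did.

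Nr5a2 was measured by 4 probe sets, of which 1456521_at was the brightest (chromosome 1 at 136842562 to 136960448). D2 had 7.97, 8.29, 8.19, 8.55 and 8.02 at weeks 0, 1, 4, 12 and 21, against 7.67, 7.97, 8.15, 8.37 and 7.77 in B6. Both strains followed the same order of weeks, lowest at week 0 and highest at week 12, except that weeks 1 and 4 changed places, and the ranges overlapped. D2 was higher at 5 of 5 weeks by 0.03 to 0.32, with a mean of 0.21 ± 0.09 (SE) that did not pass (limma adjusted p = 0.181). All 8 fed arrays were above the week 0 array of their strain, as was the case for 11.1% of all genes. The diet difference of 0.35 ± 0.17 (SE) did not pass either (limma adjusted p = 0.308, with 0.651% of all genes called).

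The other Nr5a2 probe sets above the filter did not repeat the diet difference, and 1 of them repeated the direction of the strain difference. For 1420410_at the strain difference was 0.26 ± 0.10 and the diet difference 0.01 ± 0.16, and for 1449706_s_at they were −0.11 ± 0.12 and −0.19 ± 0.16 (SE). The suffix _s marks a set of probes shared by several transcripts. The fourth, 1449707_at, lay below the filter at 2.34 to 3.57 over the arrays. The fed minus week 0 difference of Nr5a2 thus held for the brightest probe set alone. The second of its 2 windows, chr1:136960399-136960698 on the minus strand, is shown for the AGGTCA in capitals at bases 187 to 192:
Nr5a2: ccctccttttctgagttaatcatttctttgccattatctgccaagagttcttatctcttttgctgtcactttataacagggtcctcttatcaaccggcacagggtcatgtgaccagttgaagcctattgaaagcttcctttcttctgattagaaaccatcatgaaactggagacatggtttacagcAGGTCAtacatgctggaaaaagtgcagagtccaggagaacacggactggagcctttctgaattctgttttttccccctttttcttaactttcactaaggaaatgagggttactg

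Fgfr4, the receptor of FGF15 in hepatocytes, was measured by 5 probe sets. The gene lies on chromosome 13 at 55152818 to 55168759, and its brightest probe set was 1418596_at. In D2 the signal was 8.17, 7.93, 8.20, 7.92 and 8.25 at weeks 0, 1, 4, 12 and 21, against 7.28, 7.34, 7.02, 7.37 and 7.41 in B6. No D2 array fell into the B6 range, and the gap between the lowest D2 and the highest B6 array was 0.50. A gap of this kind with D2 higher was found for 4.17% of all genes. The means were 8.09 ± 0.16 in D2 and 7.29 ± 0.15 in B6 (SD, n = 5 arrays each). The strain difference was 0.81 ± 0.11 (SE, 95% interval 0.54 to 1.07, higher in D2 at 5 of 5 weeks, limma adjusted p = 0.00516), which placed Fgfr4 at rank 222 of all genes by p-value. With any array left out the adjusted p was 0.0127 to 0.0293. In this fit leaving out either array of a week gives the same difference, so these are 5 distinct cases.

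On the diet alone, Fgfr4 averaged 8.07 ± 0.18 in D2 and 7.29 ± 0.18 in B6 (SD, n = 4 arrays each), a difference of 0.79 ± 0.14 (SE, limma adjusted p = 0.0216). Here 1 of 7 members passed, with 6.37% of all genes called and 2.97% higher in D2. This smaller comparison lost the call without either array of week 4, 12 or 21 (limma adjusted p up to 0.102), where the difference was 0.66 to 0.87, with the signals as deposited (0.68, adjusted p = 0.0625) and with the mean of all probe sets (0.54, adjusted p = 0.120). Its week 0 pair differed by 0.88, within the range of the fed pairs of 0.55 to 1.17. Within neither strain did Fgfr4 pass the diet test after normalisation. Fed minus week 0 was −0.09 ± 0.20 in D2 and 0.00 ± 0.20 in B6 (SE), with 95% intervals of −0.55 to 0.36 and −0.45 to 0.46.

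**Figure D3:**
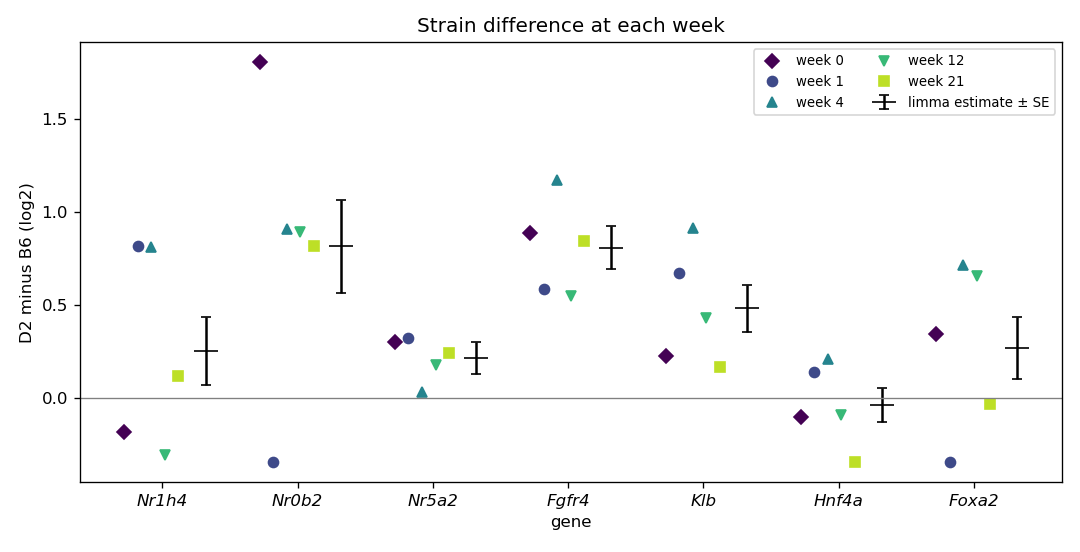
D2 minus B6 difference at each week (coloured symbols, log2) for each regulator, with the limma estimate and its standard error in black to the right of each group. All 5 weeks lie above 0 for Nr5a2, Fgfr4 and Klb, and those of Nr0b2 span −0.34 to 1.80.

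The other Fgfr4 probe sets above the filter gave positive strain differences, fitted among all 22518 probe sets above it, of which 6.83% were called. For 1427776_a_at the difference was 0.65 ± 0.14 (SE, limma adjusted p = 0.0315), with D2 at 5.95 to 6.58 and B6 at 5.41 to 5.78. The x-type probe sets, which can cross-hybridise with other transcripts, differed by 0.52 ± 0.14 for 1427777_x_at (adjusted p = 0.0682) and 0.50 ± 0.13 for 1427846_x_at (SE, limma adjusted p = 0.0616). The strains did not overlap for 1427776_a_at, and for 1427777_x_at they overlapped through B6 week 0 at 5.77. For 1427846_x_at they almost touched, with the lowest D2 array at 5.76 and the highest B6 array at 5.75. The share of all probe sets without overlap was not counted. The fifth, 1427845_at, was below the filter in both strains, at 0.57 to 2.86 in D2 and 0.45 to 2.44 in B6. With the mean of all probe sets in place of the brightest, which includes 1427845_at below the filter, the difference was 0.52 and did not pass (limma adjusted p = 0.0773).

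The Fgfr4 window, chr13:55152568-55152867 on the plus strand, is shown because this was the member that differed between the strains. It held neither the half-site nor the longer or shorter LRH-1 motif above, nor the inverted repeat of AGGTCA spaced by 1 base that FXR binds with RXR (0.00913% of all windows), nor the FOXA core TGTTTAC (3.65%), so no letters are in capitals:
Fgfr4: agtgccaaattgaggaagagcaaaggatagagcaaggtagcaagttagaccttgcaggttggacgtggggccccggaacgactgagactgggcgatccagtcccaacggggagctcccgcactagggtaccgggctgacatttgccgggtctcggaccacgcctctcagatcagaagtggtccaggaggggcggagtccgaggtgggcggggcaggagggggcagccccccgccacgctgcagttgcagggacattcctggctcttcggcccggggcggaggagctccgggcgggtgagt

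Klb (probe set 1449568_at, chromosome 5 at 65348411 to 65386957) encodes beta-Klotho, without which FGF15 and FGF21 do not signal in hepatocytes. In D2 it stood at 8.03, 7.72, 8.27, 8.28 and 8.0 at weeks 0, 1, 4, 12 and 21. B6 had 7.80, 7.05, 7.35, 7.86 and 7.83 at these weeks, so that week 1 was the lowest point of both strains and B6 week 4 was the next lowest array. D2 was higher at 5 of 5 weeks, by 0.17 to 0.91, with the largest differences at weeks 4 and 1. Macrophage markers in B6 averaged 10.09 and 8.83 at these weeks, and 9.05 at week 21, when the Klb difference was smallest. The part of these cells in the Klb values was not tested. The average difference was 0.48 ± 0.13 (SE, 95% interval 0.19 to 0.77), just outside the threshold (limma adjusted p = 0.0597, and 0.0596 to 0.149 over the alternatives).

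On the diet the Klb difference was 0.54 ± 0.14 (SE, limma adjusted p = 0.0736). Fed minus week 0 was 0.04 ± 0.32 in D2 and −0.28 ± 0.32 in B6 (SE), and neither passed. Over the fed weeks Klb had a positive slope, 0.14 ± 0.04 per doubling of weeks with both strains together (SE, 8 arrays), but no gene passed the trend test in limma after adjustment (adjusted p = 0.972 for Klb, 0% of all genes called and 523 genes at an unadjusted p under 0.05). The second Klb probe set, 1426075_at, was near background at 0.90 to 2.48 in D2 and 0.50 to 1.47 in B6.

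Hnf4a, whose product maintains hepatocyte identity and activates bile acid synthesis genes, lies on chromosome 2 at 163506811 to 163572907 and was measured by 4 probe sets. The brightest, 1427001_s_at, gave 11.03, 10.91, 10.82, 10.86 and 10.60 in D2 at weeks 0, 1, 4, 12 and 21, against 11.14, 10.77, 10.61, 10.95 and 10.94 in B6. The strains overlapped almost fully, and the difference of −0.04 ± 0.09 (SE) had a 95% interval of −0.25 to 0.17. In both strains week 0 was the highest array. All 8 fed arrays were below the week 0 array of their strain, which was the case for 9.94% of all genes. The diet difference was −0.28 ± 0.11 (SE) and did not pass over all genes (limma adjusted p = 0.232).

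The other 3 Hnf4a probe sets also had all fed arrays below week 0 in both strains. For 1427000_at fed D2 arrays were at 9.49 to 9.83 against 10.51 at week 0, and fed B6 arrays at 9.54 to 10.13 against 10.55 at week 0. Its diet difference of −0.73 ± 0.15 (SE) lay just outside the threshold (limma adjusted p = 0.0555, with 0.622% of all probe sets called). Those of 1421983_s_at and 1450447_at were −0.55 ± 0.19 and −0.45 ± 0.19 (SE, limma adjusted p = 0.178 and 0.268). Both week 0 arrays were also the dimmest of the series before normalisation. With the signals as deposited, the median of all genes was 0.52 higher in fed arrays and the difference of the brightest probe set, 1427001_s_at, was 0.07. That probe set lay below the median of all genes under both scalings but had a negative sign only after normalisation. For 1427000_at the deposited signal was also below week 0 on every fed array. It was 694 to 1014 against 1199 in D2, and 818 to 1175 against 1198 in B6.

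Foxa2 (probe set 1422833_at, chromosome 2 at 148042877 to 148046969) was at 7.59, 7.43, 7.40, 8.12 and 7.58 in D2 and at 7.25, 7.77, 6.68, 7.47 and 7.61 in B6 over the same weeks. The lowest array was B6 week 4 and the highest D2 week 12. D2 was higher at 3 of 5 weeks, with an average of 0.27 ± 0.17 (SE, limma adjusted p = 0.369). The diet difference was 0.09 ± 0.26 (SE), with fed arrays on both sides of week 0 in each strain.

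Target genes were set beside the regulators. In D2, Cyp7a1 was at 9.14, 9.71, 10.28, 10.32 and 9.76 at weeks 0, 1, 4, 12 and 21, and in B6 at 9.67, 5.98, 7.46, 9.73 and 8.15. On the diet D2 exceeded B6 by 2.19 ± 0.46 for Cyp7a1 (SE, limma adjusted p = 0.0434) and by 3.64 ± 0.57 for Cyp8b1, the sterol 12-alpha-hydroxylase that directs synthesis towards cholic acid (adjusted p = 0.0165). Both calls were lost without some of the fed arrays (limma adjusted p up to 0.125 for Cyp7a1 and 0.0631 for Cyp8b1) and without week as a block (0.0719 and 0.115). Of 15 bile acid synthesis genes tested on the diet, 3 were higher in D2 and 0 lower, beside 2.97% of all genes called higher. Their differences on the diet were positive in 7 and negative in 8, with a median of −0.02. Cyp8b1 was at 11.17, 8.22, 8.72, 9.81 and 5.78 in D2 and at 10.92, 3.36, 3.63, 8.36 and 2.63 in B6. The strains were thus close in Cyp8b1 at week 0 and apart at each fed week, and the fed B6 array nearest to D2 in both genes was that of week 12. The B6 values of Cyp8b1 at weeks 1, 4 and 21 lay below the filter value of 3.74, so the size of its differences is uncertain. With a pseudocount of 16 its difference on the diet was 2.69. The differences and correlations of Cyp8b1 given below use these low values too.

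Klb and Cyp7a1 followed each other over the 10 arrays. Pearson's r was 0.899 (permutation p = 0.00063, adjusted p = 0.00567 over 9 pairs of a regulator and a bile acid gene or second regulator) and Spearman's rho was 0.806 (permutation p = 0.00692, adjusted p = 0.0623). After centring each strain on its mean, r was 0.832 (permutation p = 0.00757, adjusted p = 0.0341). Without B6 weeks 1 and 4, the arrays farthest from the median of Klb, r was 0.543 (permutation p = 0.155), so that the relation rests on those arrays. Macrophage markers on these arrays averaged 8.83 and 10.09, and their part in this relation was not tested. For Fgfr4 and Cyp7a1 no pooled r is given, because the strains form separate clusters in Fgfr4, and after strain centring r was 0.0714 (permutation p = 0.880, adjusted p = 0.990).

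**Figure D4:**
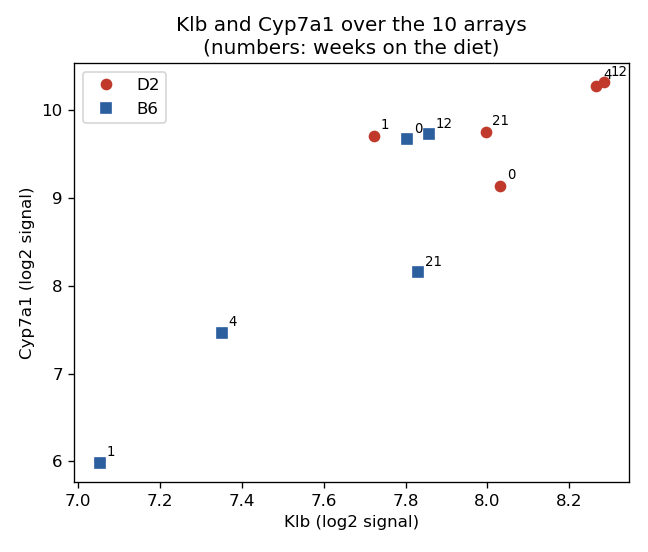
Log2 normalised signal of Cyp7a1 (vertical axis) against that of Klb (horizontal axis) over the 10 arrays, D2 as red circles and B6 as blue squares, each labelled with its weeks on the diet. B6 weeks 1 and 4 are lowest in both genes, and without them Pearson's r is 0.543 in place of 0.899.

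Nr0b2 was set against 4 bile acid genes. With Slc51b, a subunit of the basolateral bile acid exporter and an FXR target, r was 0.564 (permutation p = 0.0856, adjusted p = 0.154) and rho 0.552 (permutation p = 0.105, adjusted p = 0.190). After strain centring r was 0.856 (permutation p = 0.00428, adjusted p = 0.0341), while the uncentred r without B6 weeks 0 and 12 was 0.0034, in place of 0.564. Slc51b lay below the filter, so it was not tested between groups. Its signal was 3.97, 3.32, 4.13, 1.71 and 4.66 in D2 and 1.51, 6.55, 4.42, 1.5 and 5.5 in B6 over the weeks. B6 thus had its highest Slc51b and its highest Nr0b2 on the same array, week 1, and its lowest Nr0b2 array, week 0, was among the lowest in Slc51b.

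With Abcb11, the canalicular bile salt export pump and another FXR target, Nr0b2 had r = 0.672 (permutation p = 0.0297, adjusted p = 0.133) and rho = 0.733 (permutation p = 0.0205, adjusted p = 0.0921). With Cyp8b1 r was −0.191 (permutation p = 0.613, adjusted p = 0.695) and −0.799 after strain centring (permutation p = 0.0155, adjusted p = 0.0397). With Cyp7a1 it was −0.044 (permutation p = 0.902) and −0.783 after centring (permutation p = 0.0637, adjusted p = 0.112). Without B6 weeks 0 and 12, the lowest arrays of Nr0b2, the uncentred r was 0.487 with Abcb11, 0.442 with Cyp8b1 and 0.356 with Cyp7a1, so that the last 2 changed sign. The centred values were not computed without these arrays. Within D2 alone, r with Cyp7a1 was 0.0977 and with Cyp8b1 −0.421, each over 5 arrays and given as a description.

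**Figure D5:**
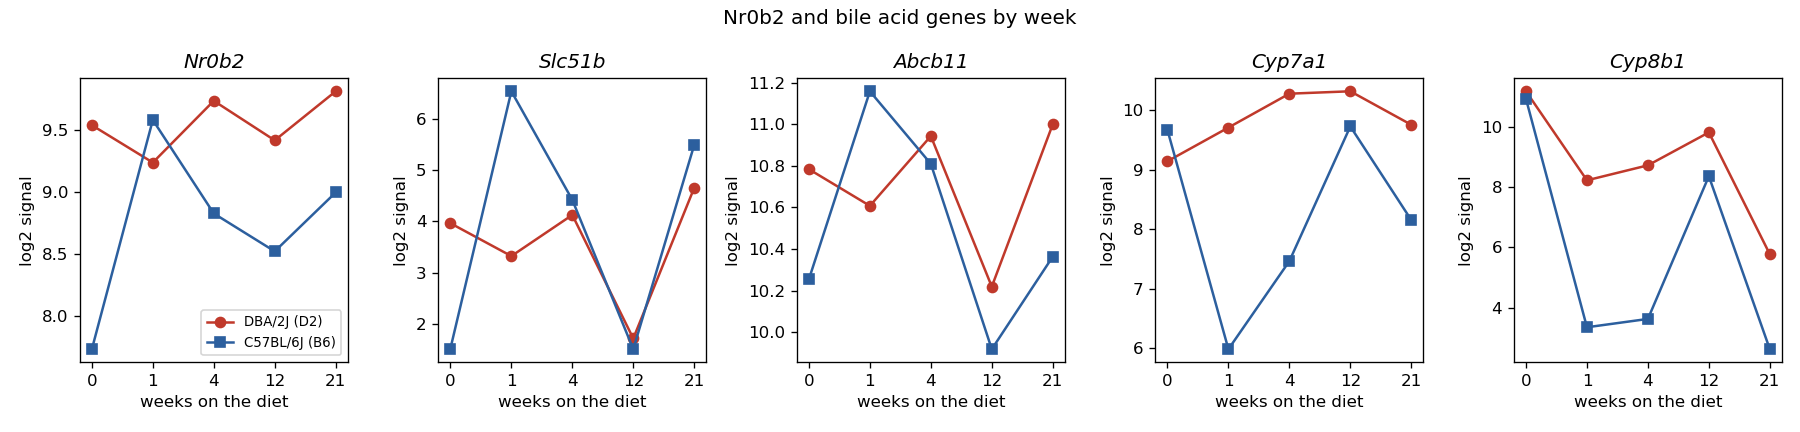
Log2 normalised signal of Nr0b2 and of 4 bile acid genes (vertical axes, each on its own scale) against weeks on the diet, with 1 point per array, D2 as red circles and B6 as blue squares. In B6, week 1 has the highest Nr0b2, Slc51b and Abcb11 and low Cyp7a1 and Cyp8b1.

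Among the remaining pairs no uncentred correlation passed, while that of Hnf4a with Cyp8b1 passed after strain centring. Hnf4a with Cyp8b1 had r = 0.617 (permutation p = 0.0598, adjusted p = 0.143), and 0.777 after strain centring (permutation p = 0.0177, adjusted p = 0.0397), and 0.525 without B6 week 4 and D2 week 21. With the signals as deposited, the uncentred r of this pair was 0.0128 (permutation p = 0.972). Nr1h4 with its target Nr0b2 had r = −0.185 (permutation p = 0.618, adjusted p = 0.695) and rho = −0.310, and B6 weeks 1 and 4 combined low Nr1h4 with Nr0b2 above week 0. Nr5a2 with Cyp8b1 had r = 0.204 (permutation p = 0.566, adjusted p = 0.695). Among the members themselves, the highest Pearson correlation was that of Nr1h4 with Klb (0.790, Spearman 0.401), over arrays that share B6 weeks 1 and 4 as the lowest of both genes. The highest Spearman correlation was that of Nr0b2 with Fgfr4 (0.758), over strains that form separate clusters in Fgfr4, so it also holds the strain difference. Both correlations are given as a description.

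The wider pathway was counted in the same fits. Of 15 bile acid synthesis genes tested, 9 had a positive and 6 a negative strain difference over all weeks, with a median of 0.09. Beside the 3.91% of all genes called higher in D2, 2 of them were higher and 0 lower. They were Cyp8b1 (2.96 ± 0.67, limma adjusted p = 0.035) and Hsd3b7, the next enzyme after Cyp7a1 (0.32 ± 0.07, adjusted p = 0.0304). Each call was lost with most single arrays left out (2 of 10 kept, where either array of a week gives the same difference). Both were also lost without week as a block (limma adjusted p = 0.305 and 0.169). Of 15 FXR target genes none passed in either direction in any of the comparisons, and their median strain difference was 0.06. At an unadjusted p under 0.05, 1 of them was called between the strains and 3 in the diet comparison, beside 24.0% and 17.5% of all genes. Abcb11 differed between the strains by 0.21 ± 0.16 (SE, limma adjusted p = 0.464). Slc10a1, the sodium-dependent importer of bile acids, differed by 0.21 ± 0.16 (SE, limma adjusted p = 0.459).

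Of 13 genes of FGF receptor signalling tested beside the members, 2 were higher in D2 and 0 lower, against 3.91% of all genes called higher. Their strain differences were positive in 6 and negative in 7, with a median of −0.03. Fgf21, a hormone made by the liver that also signals through beta-Klotho, was at 7.32, 7.07, 7.26, 6.57 and 7.53 in D2, against 6.29, 4.75, 3.79, 4.02 and 5.28 in B6, at weeks 0, 1, 4, 12 and 21. The strains did not overlap, and the difference of 2.32 ± 0.29 (SE, limma adjusted p = 0.00308) kept its call with each of the 10 arrays left out, which make 5 distinct cases. Fgfr3, another FGF receptor gene, differed by 0.70 ± 0.12 (SE, limma adjusted p = 0.0136) and was no longer called when a week 21 array was left out (adjusted p up to 0.063) or with the mean of all its probe sets (0.37, limma adjusted p = 0.226).

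Of 18 coregulators and partners, 2 were higher in D2 and 0 lower, again beside 3.91% of all genes, and 11 differences were positive and 7 negative, with a median of 0.05. Med1, a Mediator subunit that binds nuclear receptors, was at 7.30 to 7.60 in D2 and 6.22 to 6.80 in B6 (0.94 ± 0.13, SE, limma adjusted p = 0.00436, kept with each array left out but not with the mean of all probe sets, adjusted p = 0.25). Ncoa2, a coactivator of nuclear receptors, differed by 0.39 ± 0.09 (SE, limma adjusted p = 0.0425) and lost the call with any array left out and without the block (adjusted p = 0.0513). Of 16 further liver transcription factors, 3 were higher in D2 and 0 lower: Nr1d1 (1.16 ± 0.23), Ppara (0.82 ± 0.18) and Cebpa (0.42 ± 0.10, SE, limma adjusted p = 0.0229 to 0.0483), each lost without some arrays. In this list 11 differences were positive and 5 negative, with a median of 0.15. With the mean of all probe sets Ppara (0.36, limma adjusted p = 0.279) and Cebpa (0.42, adjusted p = 0.0586) were no longer called, nor was Ncoa2 (0.46, adjusted p = 0.121), and without the block Nr1d1 and Cebpa were not (limma adjusted p = 0.394 and 0.167). On the diet Foxa3, a relative of Foxa2, was higher in D2 by 0.86 ± 0.11 (SE, limma adjusted p = 0.00803), which did not hold when a week 12 array was left out (adjusted p up to 0.0506). At week 0 Foxa3 was at 8.84 in D2 and 8.99 in B6. In that comparison 2 of the 16 factors, Foxa3 and Cebpa, were higher in D2 and 0 lower, beside 2.97% of all genes called higher. Their differences on the diet were positive in 12 and negative in 4. Fed arrays exceeded week 0 in the clock repressor genes Nr1d1 (2.80 ± 0.39) and Nr1d2 (1.65 ± 0.23, SE, limma adjusted p = 0.0154 for both), and both calls were lost without either week 0 array. In this diet comparison 2 of the 16 factors were higher and 0 lower, beside 0.651% of all genes called in either direction. Their diet differences were positive in 7 and negative in 9, with a median of −0.02. Nr1d1 in B6 at week 0 was at 3.02, below the filter value of 3.74. With a pseudocount of 16 its diet difference was 1.90.

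The genes whose levels followed each member most closely over the 10 arrays are named as a description. For Fgfr4 they were Slc3a1 (r = 0.979), Fmn2 (0.970) and Tmem19 (0.967), for Klb Ugt3a1 (0.973), Csrp3 (0.945) and Plpp3 (0.926), and for Hnf4a Angptl4 (0.974), Pam16 (0.945) and Pole4 (0.940). For Nr0b2 they were Ablim1 (0.949), Tmem125 (0.946) and Lix1l (0.944), and for Nr1h4 Rmnd5a, Pipox (both 0.944) and Gstz1 (0.943). Nr5a2 was followed by Mllt3 and Gm4951 (both 0.930) and Trib1 (0.918), and Foxa2 by Med29 (0.914), Ift80 (0.910) and Tut1 (0.899). No member was among the 3 nearest genes of another. In Fgfr4 and in its 3 nearest genes the strains did not overlap, so those r values also hold the difference between the strains. Fmn2 was at 2.59 to 3.51 in B6, below the filter value of 3.74 on every array, and at 5.17 to 6.07 in D2. It thus passed the filter through D2 alone.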

How the data were processed

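The authors deposited 1 intensity per probe set and array, not on a log scale. Per the submitters' processing notes they were made with GCOS, and its version and scaling are not given in the sources used here. Control probe sets (64 of 45101) were left out. Of the rest, 34958 had 1 gene symbol, 932 had several and 9160 had none in the platform annotation. Quantile normalisation was followed by log2(signal + 1.05), with the 10th percentile of all deposited values as pseudocount. Each gene was read by its brightest probe set and kept where its mean exceeded the 50th percentile of all probe sets (3.74), which left 11061 genes. Tests used limma 3.58.1 in R 4.3.3 (lmFit, eBayes with trend) with Benjamini-Hochberg adjustment at 0.05 and were tested on simulated data.

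Strain fits held week as a factor, because the labels pair 1 D2 and 1 B6 pool at each week, which the paired fits use as a block. The diet fit had strain as a term, the within-strain and interaction fits used 4 group means, and the trend was fitted on log2 week over 8 fed arrays. Correlations had two-sided permutation p-values from 100000 resamples (scipy 1.17.1). Promoter windows and gene positions are from RefSeq GRCm38.p6, and all 7 genes matched. Protein sequences were not used here. The number of arrays limits precision. The members, gene lists and tests were chosen with earlier results of these data known. Named genes were the members, the 3 nearest genes of each, 6 bile acid genes and list members that passed. Alternatives were another pseudocount, other scalings, filters, variance models and probe set choices, no block, and each array left out in turn. The fit of every probe set of a member and the motif TCAAGG were added after seeing the data. Figures were drawn with matplotlib 3.10.9 in Python 3.11.15.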

Additional observations from a re-analysis of the deposited data

How the results depend on the processing

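Of the results recomputed for the members and the genes named with them, 535 values kept their side of the threshold and their direction, 123 lost a call, 7 gained one and 21 changed sign. Without week as a replicate block, 774 genes passed between the strains over all weeks and 774 on the diet, in place of 883 and 705, and Fgfr4 passed in both (limma adjusted p = 0.000777 and 0.00635). The block changed no call of the 7 members over all weeks, nor of Nr0b2, Fgfr4 and Klb on the diet. Without it, calls over all weeks were lost for Cyp8b1, Hsd3b7, Ncoa2, Nr1d1 and Cebpa (limma adjusted p = 0.31, 0.17, 0.051, 0.39 and 0.17), and on the diet for Cyp7a1, Cyp8b1 and Cebpa (0.072, 0.11 and 0.067). The diet comparison depended on the scale: 313 genes passed with arrays centred on their median and 4990 with signals as deposited (276 and 4949 of them higher in fed arrays), in place of 72. Within B6, where 13 genes passed, the count was 0 with a pseudocount of 16, 1946 as deposited, 20 with the filter at the 25th percentile and 33 without the variance trend. Within D2, also 13, it was 2, 45, 8 without a filter and 38 without the trend. The 1 gene of the interaction was lost (0 genes) with a pseudocount of 16, with the mean of all probe sets and without the trend. On the diet 460 genes passed between the strains without the trend. With 1 array left out, the counts were 386 to 715 between the strains, 223 to 506 on the diet, 14 to 95 for the diet comparison, 0 to 22 within B6, 6 to 21 within D2 and 0 to 1 for the interaction. The fits with 1 array left out also held fewer arrays, and the causes of these shifts were not tested.

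Signs of members that turned belonged to differences that had not passed after normalisation. The Hnf4a strain difference was 0.035 with median centring, 0.022 and 0.036 by its probe sets 1421983_s_at and 1450447_at, and −0.099 to 0.040 with 1 array left out. The diet differences with median centring and as deposited were 0.020 and 0.38 for Nr1h4, 0.13 and 0.49 for Fgfr4 and 0.062 and 0.42 for Klb, and as deposited 0.066 for Hnf4a, where the all-gene medians were 0.16 and 0.52. With the mean of all probe sets Klb was at 0.21 and Nr5a2 at −0.0023, and Nr5a2 was at −0.19 for diet and −0.11 for strain by probe set 1449706_s_at. With 1 array left out the diet difference ranged from −0.39 to 0.15 for Nr1h4, from −0.094 to 0.003 for Fgfr4 and from −0.28 to 0.037 for Klb, and that of Nr0b2 within D2 from −0.076 to 0.12.

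Among the correlations, Nr0b2 with Cyp7a1 was 0.356 and with Cyp8b1 0.442 without the 2 arrays farthest from the median of Nr0b2, and Nr0b2 with Abcb11 was 0.487 without them and 0.683 after strain centring. Centring gave −0.799 for Nr0b2 with Cyp8b1, 0.856 with Slc51b and 0.777 for Hnf4a with Cyp8b1. The last pair had an uncentred r of 0.0128 with the signals as deposited. Klb with Cyp7a1 was 0.543 without 2 arrays. Nr1h4 with Nr0b2 was 0.145 as deposited, and Nr5a2 with Cyp8b1 was −0.0017 after centring and −0.281 as deposited.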
